A study of Mus musculus with 2 samples.

Results

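A set of 10 genes of dying-cell clearance was followed in microglia and neighbouring cells sorted from embryonic mouse brain. They were Axl, Mertk, Tyro3, Gas6, Pros1, Mfge8, Timd4, Msr1, Havcr2 and Elmo1, found by gene symbol among 31053 features, and each had 1 feature in both libraries. The cells carried Cd11b and Cd45 on their surface and came from the hypothalamic and thalamic region of CD1 embryos, an outbred strain, at E15.5 (embryonic day). The control library pooled tissue of 10 embryos of 1 wild-type dam. For the stressed library, tissue of 5 embryos was pooled from 1 dam that had spent 30 min a day at 4 °C on the 5 days from E11.5 to E15.5. With 1 library per condition, condition, dam, litter, pool and library cannot be told apart, and there is no replicate check. No test between conditions was possible. All intervals are 95% intervals and cover counting error only.

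Cells that die during brain development expose phosphatidylserine on their surface and are engulfed by phagocytes. The secreted proteins Gas6 and Pros1 bridge that lipid to the receptor tyrosine kinases Tyro3, Axl and Mertk, and Mfge8 bridges it to integrins. Timd4 binds the lipid directly, Havcr2 (Tim-3) is a related receptor, Msr1 is a scavenger receptor, and Elmo1 works with Dock proteins to activate Rac, which reshapes the actin skeleton for engulfment. In the developing brain, microglia are the main resident phagocytes.

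Depth differed between the libraries: 2833015 UMIs (unique molecular identifiers, each counting 1 captured RNA molecule) in 1156 control barcodes, a median of 1947.5, against 6582188 UMIs in 1467 stressed barcodes, a median of 3767. After removal of cells with fewer than 500 genes or more than 10% mitochondrial UMIs, 1068 and 1407 cells remained. Clusters made without the 10 genes gave 714 control and 1159 stressed microglia-like cells, 61 and 21 border-associated macrophage-like cells, 32 and 27 monocyte or granulocyte-like cells, 218 and 176 neural-like cells, and an unnamed group led by haemoglobin and vascular genes of 43 and 24 cells. All 12 microglial markers were detected in the microglia-like class of each library, and all 9 border macrophage markers in the border-associated class. The neural-like cells went against the sort and the label: their summed microglial markers stood at 4.84% of the microglia-like level among control cells and at 16.0% among stressed cells. The libraries shared 13 barcodes, of which 8 control and 5 stressed ones were kept, and the counts of genes past a threshold in the microglia-like class were the same without them.

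Most of the RNA of 6 genes was in microglia-like cells, the class that also held most UMIs of all genes. Its totals over all genes were 1937668 of 2738489 UMIs in kept control cells and 5283965 of 6474610 in kept stressed cells. The shares of single genes are to be read beside these totals. Of the UMIs in kept cells, this class held 91.7% of the 2837 for Gas6, 92.8% of the 943 for Pros1, 94.6% of the 553 for Mertk, 96.8% of the 379 for Havcr2, 88.2% of the 416 for Elmo1 and 83.4% of the 313 for Axl. Mfge8 lay elsewhere, with 76.1% of its 310 UMIs in neural-like cells. Timd4 had 12 UMIs, 8 of them in border-associated cells. Msr1 had 91, of which 60.4% were in microglia-like, 24.2% in border-associated and 15.4% in monocyte or granulocyte-like cells. Tyro3 had 15, and 12 of these were in neural-like cells.

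Havcr2, Timd4 and Mfge8 had most of their UMIs in the microglia-like, border-associated and neural-like class respectively, so the stretch before the start of each is shown as an example of 1 gene per class, chosen after its values were seen. The sequences are from RefSeq on assembly GRCm38.p6, where 9 of the 10 genes had a promoter window, Elmo1 having more than 1; Msr1 was not matched. Each is the 250 bases upstream of the annotated start, 5′ to 3′ on the gene's own strand. Capitals mark AGGTCA, a motif bound by many nuclear receptors, and GAGGAAG, a PU.1-type site, searched on both strands. Havcr2 is on the plus strand at chr11:46454681-46454930, Timd4 on the plus strand at chr11:46810549-46810798 and Mfge8 on the minus strand at chr7:79149061-79149310.
Havcr2: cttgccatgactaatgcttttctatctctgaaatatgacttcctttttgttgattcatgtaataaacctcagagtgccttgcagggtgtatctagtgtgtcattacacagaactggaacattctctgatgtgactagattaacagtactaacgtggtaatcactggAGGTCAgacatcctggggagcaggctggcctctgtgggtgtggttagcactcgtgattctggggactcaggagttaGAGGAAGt
Timd4: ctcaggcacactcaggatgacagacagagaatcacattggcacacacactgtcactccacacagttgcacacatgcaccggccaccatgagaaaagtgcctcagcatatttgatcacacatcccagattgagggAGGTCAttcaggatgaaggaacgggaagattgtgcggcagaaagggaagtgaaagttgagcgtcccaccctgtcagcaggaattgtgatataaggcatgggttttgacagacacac
Mfge8: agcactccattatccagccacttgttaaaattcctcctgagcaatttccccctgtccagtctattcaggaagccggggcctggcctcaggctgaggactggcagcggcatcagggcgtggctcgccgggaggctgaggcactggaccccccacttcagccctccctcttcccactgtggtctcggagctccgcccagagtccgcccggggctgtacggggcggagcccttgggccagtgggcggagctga
Havcr2 held both motifs, with the PU.1-type site starting 8 bases before the start and AGGTCA 84 bases before it. Timd4 held AGGTCA, 116 bases before the start. The Mfge8 window held neither. Among the other windows, Axl held the PU.1-type site on the opposite strand, its first base in the window being 131 bases before the start. The 2 motifs are common: of 32851 promoter windows of the same length, 10.6% held GAGGAAG and 14.02% held AGGTCA. The E-box TCACGTGA, bound by MiT family factors that control lysosomal genes, was in 0.785% of windows and in none of the 10 windows of these genes. A match describes the letters only.

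Gas6, the ligand with the highest affinity for Axl, was carried mainly by the phagocytes. In CPM (UMIs scaled to a class total of 1000000), it stood at 327 (302 to 353) in control and 372 (356 to 389) in stressed microglia-like cells. Border-associated cells were above them, at 519 (422 to 632) and 647 (506 to 815). Monocyte or granulocyte-like cells were far below, at 0 UMIs in 32 control cells and 4 UMIs, all in 1 cell, in 27 stressed cells. The log2 ratio of border-associated over microglia-like cells was 0.67 (0.35 to 0.98) among control cells and 0.80 (0.44 to 1.14) among stressed cells, so the intervals of both lay above 0. Among cells with Xist and no Y-linked UMI, called female here, the control ratio was −0.01. Gas6 in neural-like cells was 4.34 CPM among control cells and 38.9 among stressed cells, 1.33% and 10.4% of the microglia-like level, and it moved with the microglial markers given above; the part of microglial RNA in this difference was not tested. The Gas6 gene spans chr8:13465374-13494490 on the minus strand of GRCm38.

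Of microglia-like cells, 44.3% of control and 64.0% of stressed ones had a Gas6 UMI as sequenced, where depth differed. With each cell thinned to 1100 UMIs, leaving out 52 control and 5 stressed cells, it was 27.2% (23.8 to 30.8%) and 30.6% (27.9 to 33.3%), and the intervals overlapped. In neural-like cells, as background, it was 0.578% and 1.84% at the same depth. The unthinned shares came from median depths of 2215.5 and 3935 UMIs in microglia-like cells and 1542 and 3229 in neural-like cells.

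Pros1, protein S, also a plasma anticoagulant, was at 130 CPM (114 to 147) in control and 118 (109 to 128) in stressed microglia-like cells. Border-associated cells had 68.2 (36.3 to 117) and 108 (55.7 to 188). Their log2 ratio to microglia-like cells was −0.93 (−1.86 to −0.13) in the control library, an interval below 0. In the stressed library it was −0.13 (−1.09 to 0.69), so that value did not differ from microglia-like cells beyond counting error. Monocyte or granulocyte-like cells had 2 and 7 UMIs and neural-like cells 4 and 9. At equal depth 13.3% of control and 12.8% of stressed microglia-like cells had a Pros1 UMI.

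Mertk, the receptor most associated with engulfment by resident macrophages, was at 81.5 CPM (69.3 to 95.3) in control and 69.1 (62.2 to 76.5) in stressed microglia-like cells. Border-associated cells had 5 control UMIs, at 26.2 CPM (8.52 to 61.2), and 9 stressed UMIs, at 80.9 CPM (37.0 to 154). The control border-associated level was thus below that of microglia-like cells, with a log2 ratio of −1.64 (−3.28 to −0.38), while the stressed ratio was 0.23 (−0.91 to 1.17). Neural-like cells had 0 and 9 Mertk UMIs. At equal depth 8.61% and 7.54% of microglia-like cells had a Mertk UMI.

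Axl, a receptor that many macrophages raise when they are activated, had 73 UMIs in control and 188 in stressed microglia-like cells, or 37.7 CPM (29.5 to 47.4) and 35.6 (30.7 to 41.0). Its highest level among the named classes was in monocyte or granulocyte-like cells, at 66.1 CPM (21.4 to 154) from 5 UMIs and 66.0 (30.2 to 125) from 9 UMIs, but these intervals overlapped those of microglia-like cells. Border-associated cells had 3 and 2 Axl UMIs, and the unnamed group 7 and 5, at 95.3 and 29.2 CPM. In neural progenitor-like cells there were 4 control and 14 stressed Axl UMIs, the latter at 31.9 CPM (17.4 to 53.5). Summed microglial markers in the stressed progenitors were 9.14% of the microglia-like level, against 89.6% for Axl.

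Tyro3, the receptor of this family best known in neurons, was close to undetected in phagocytes. Microglia-like cells had 1 control and 2 stressed UMIs, at most 2.88 and 1.37 CPM by the upper interval limits. Border-associated and monocyte or granulocyte-like cells had 0. The 5 control and 7 stressed UMIs in neural-like cells, each in a different cell, gave 10.8 CPM (3.52 to 25.3) and 9.07 (3.65 to 18.7), above the microglia-like level in both libraries.

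Mfge8, also called lactadherin, was highest in neural progenitor-like cells. Control progenitors had 336 CPM (268 to 417), with a UMI in 28 of 86 cells, and stressed progenitors 344 (291 to 403), with a UMI in 35 of 76 cells. Neuron-like cells had 2 UMIs in 132 control cells and 0 in 100 stressed cells. Microglia-like cells had 18 and 36 UMIs, or 9.29 and 6.81 CPM, each UMI in a different cell. Summed neural markers in those cells were at 51.6 and 55.6 CPM, against 10349 and 10787 CPM in neural-like cells; their part in the Mfge8 UMIs of microglia-like cells was not tested. Border-associated cells had 0 Mfge8 UMIs in both libraries.

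Timd4, a marker of long-lived tissue macrophages, and Msr1 were at least 2 times higher in border-associated than in microglia-like cells. Timd4 had 4 UMIs in 4 of 61 control cells and 4 UMIs in 4 of 21 stressed cells, or 21.0 CPM (5.72 to 53.7) and 35.9 (9.79 to 92.0). The microglia-like class had 1 and 3 Timd4 UMIs in 1 and 2 cells, of which 1 cell in each library had more border macrophage than microglial marker UMIs. Msr1 was at 73.4 CPM (40.1 to 123) and 71.9 (31.0 to 142) in border-associated cells and at 52.8 (14.4 to 135) and 73.3 (35.2 to 135) in monocyte or granulocyte-like cells, levels that did not differ beyond counting error. Microglia-like cells were lower, at 11.9 (7.52 to 17.8) and 6.06 (4.14 to 8.55), and neural-like cells had 0.

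Havcr2, an inhibitory receptor in lymphocytes that microglia also express, and Elmo1 were highest in microglia-like cells among the named classes. Havcr2 was at 53.7 CPM (43.9 to 65.0) and 49.8 (43.9 to 56.2) there, with 2 and 0 UMIs in border-associated, 0 and 2 in monocyte or granulocyte-like and 1 and 3 in neural-like cells. Elmo1 was at 55.7 CPM (45.7 to 67.3) and 49.0 (43.2 to 55.4), and it was spread more widely: neural-like cells had 28.2 (15.01 to 48.2) and 25.9 (15.8 to 40.0). Stressed border-associated cells had 0 UMIs of both genes. With a floor of 3 UMIs in place of 0, the log2 value against microglia-like cells was −0.88 for Havcr2 and −0.86 for Elmo1. These values are bounds set by the floor, not measured ratios. The exact intervals had no lower limit, and their upper 95% limits were −0.58 and −0.55. Among control cells the ratio was −2.36 (−5.42 to −0.47) for Havcr2, from 2 border-associated UMIs. For Elmo1 it was −0.82 (−2.30 to 0.34), from 6 UMIs, an interval that included 0. Monocyte or granulocyte-like cells had 2 Elmo1 UMIs in each library.

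**Figure D1:**
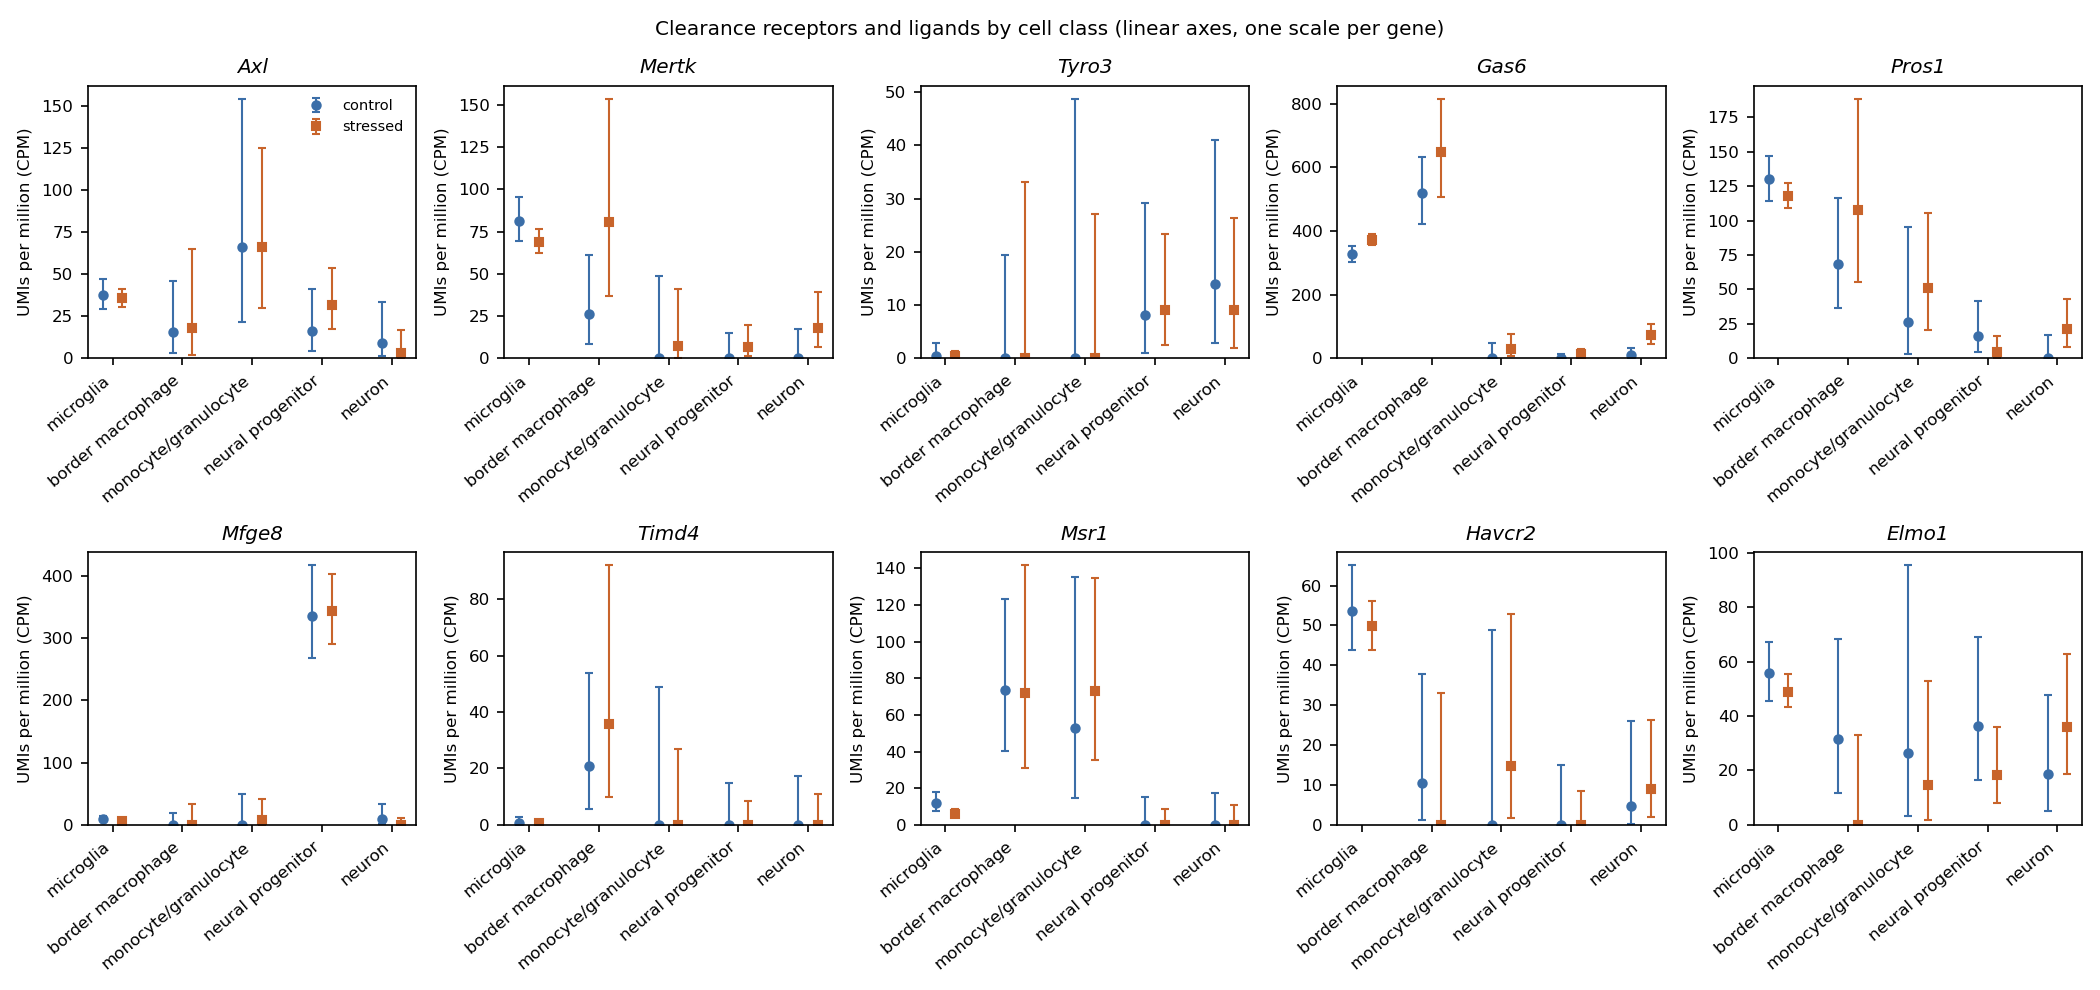
Level of each gene in 5 cell classes, in CPM (linear axes that start at 0, a separate scale for each gene), with circles for the control and squares for the stressed library and bars for exact Poisson 95% intervals. Gas6 was highest in border-associated cells (519 and 647 CPM), Mfge8 in neural progenitor-like cells (336 and 344 CPM), and Havcr2 in microglia-like cells (53.7 and 49.8 CPM).

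Counted over both libraries, 8 of the 10 genes had a value in both classes and a level of at least 10 CPM in 1 of them. Of these, Timd4 and Msr1, 2 genes, were higher in border-associated cells of both libraries by 2 times or more and 0 were lower by as much. Among all 6388 genes measured in the same way, 4.98% were higher and 5.23% lower by this limit. Of the 2 classes compared here, Timd4 and Msr1 reached 10 CPM only in border-associated cells in the stressed library, as did Timd4 in the control library. They could therefore only be counted as higher. Havcr2 and Elmo1 had 0 UMIs in stressed border-associated cells and were set to the floor of 3 UMIs there, 27.0 CPM. At their microglia-like levels of 49.8 and 49.0 CPM they could therefore not be counted as lower by 2 times. The log2 ratio was 5.35 (2.01 to 10.97) and 5.98 (3.42 to 8.76) for Timd4, and 2.63 (1.56 to 3.65) and 3.57 (2.24 to 4.72) for Msr1. The median of the 8 genes was −0.88 among control cells and 0.05 among stressed cells, against −0.15 and −0.11 over all genes.

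Microglia-like cells formed 5 clusters. Resting-type cells, led by Tmem119 and P2ry12, numbered 302 control and 482 stressed cells; activated-type cells, led by Spp1, Gpnmb and Csf1, 128 and 190; intermediate cells, led by Yeats2 and Ccl4, 136 and 213; replicating cells, led by Ccne2 and Hells, 62 and 127; and mitotic cells, led by Ube2c and Mki67, 86 and 147. The mitotic cluster of the control library held border macrophage markers at 3290 CPM, against 663 CPM in the stressed library and 126 to 456 CPM in the other clusters.

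Gas6 and Msr1 were higher and Elmo1 was lower in activated-type than in resting-type cells of both libraries. These were 3 of the 7 genes measured, with 1.5 times as the limit. Among the 7032 genes measured in both libraries, 9.02% were higher and 10.7% were lower by that limit. Of the resting-type and activated-type cells, Msr1 reached 10 CPM only in the activated-type ones, so it could only be counted as higher. Gas6 was at 264 CPM (222 to 312) in resting-type and 410 (359 to 468) in activated-type control cells, and at 297 (269 to 326) and 500 (463 to 540) in the stressed library, log2 ratios of 0.64 (0.33 to 0.95) and 0.75 (0.57 to 0.93). Gas6 stayed higher in activated-type cells but was no longer past 1.5 times in both libraries under 4 alternatives: the control ratio was 0.55 with thinned cells, 0.57 under a stricter cell filter (1000 genes, 5% mitochondrial UMIs) and 0.50 among female cells, and both ratios were within the limit, at 0.46 and 0.54, with states set by marker UMIs per cell. The intermediate cluster lay between them, at 347 and 424 CPM. At equal depth 22.0% of resting-type and 36.2% of activated-type control cells had a Gas6 UMI, and 26.5% and 43.2% of the stressed ones.

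Elmo1 was at 67.9 CPM in resting-type and 30.9 CPM in activated-type control cells, and at 59.5 and 33.2 CPM in the stressed library. The log2 ratios were −1.14 (−2.06 to −0.27) and −0.84 (−1.40 to −0.30). Msr1 had 1 resting-type and 12 activated-type UMIs among control cells and 3 and 14 among stressed cells, log2 ratios of 3.53 (0.77 to 8.95) and 2.35 (0.51 to 4.79). Within the activated-type cluster, 12 control and 13 stressed cells that a finer clustering separated by Lgals3 held 6 Msr1 UMIs in each library, 93.5 and 57.3 CPM, against 12.3 and 6.55 CPM in the other activated-type cells. These cells were singled out after their values were seen. In the control library the log2 ratio of Msr1 was 0.43 under the stricter cell filter and 0.56 among female cells.

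For the kinase receptors no interval excluded 0. Mertk had log2 ratios of activated-type over resting-type cells of −0.47 (−1.11 to 0.16) and −0.24 (−0.64 to 0.17), and Axl of −0.25 (−1.39 to 0.88) and −0.49 (−1.12 to 0.13). Axl stood at 0.77 and 0.75 with thinned cells. Axl was highest in the intermediate cluster, at 66.9 CPM (42.0 to 101) among control cells and 56.5 (42.2 to 74.1) among stressed cells, against 30.2 and 40.1 CPM in resting-type cells. Pros1 was lower in activated-type cells of the stressed library, −0.59 (−0.93 to −0.27), with −0.13 (−0.60 to 0.34) in the control library; among female cells it was past 1.5 times lower in both, at −0.71 in the control and −0.59 in the stressed cells. Havcr2 had −0.78 (−1.66 to 0.07) and −0.52 (−1.04 to −0.02).

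**Figure D2:**
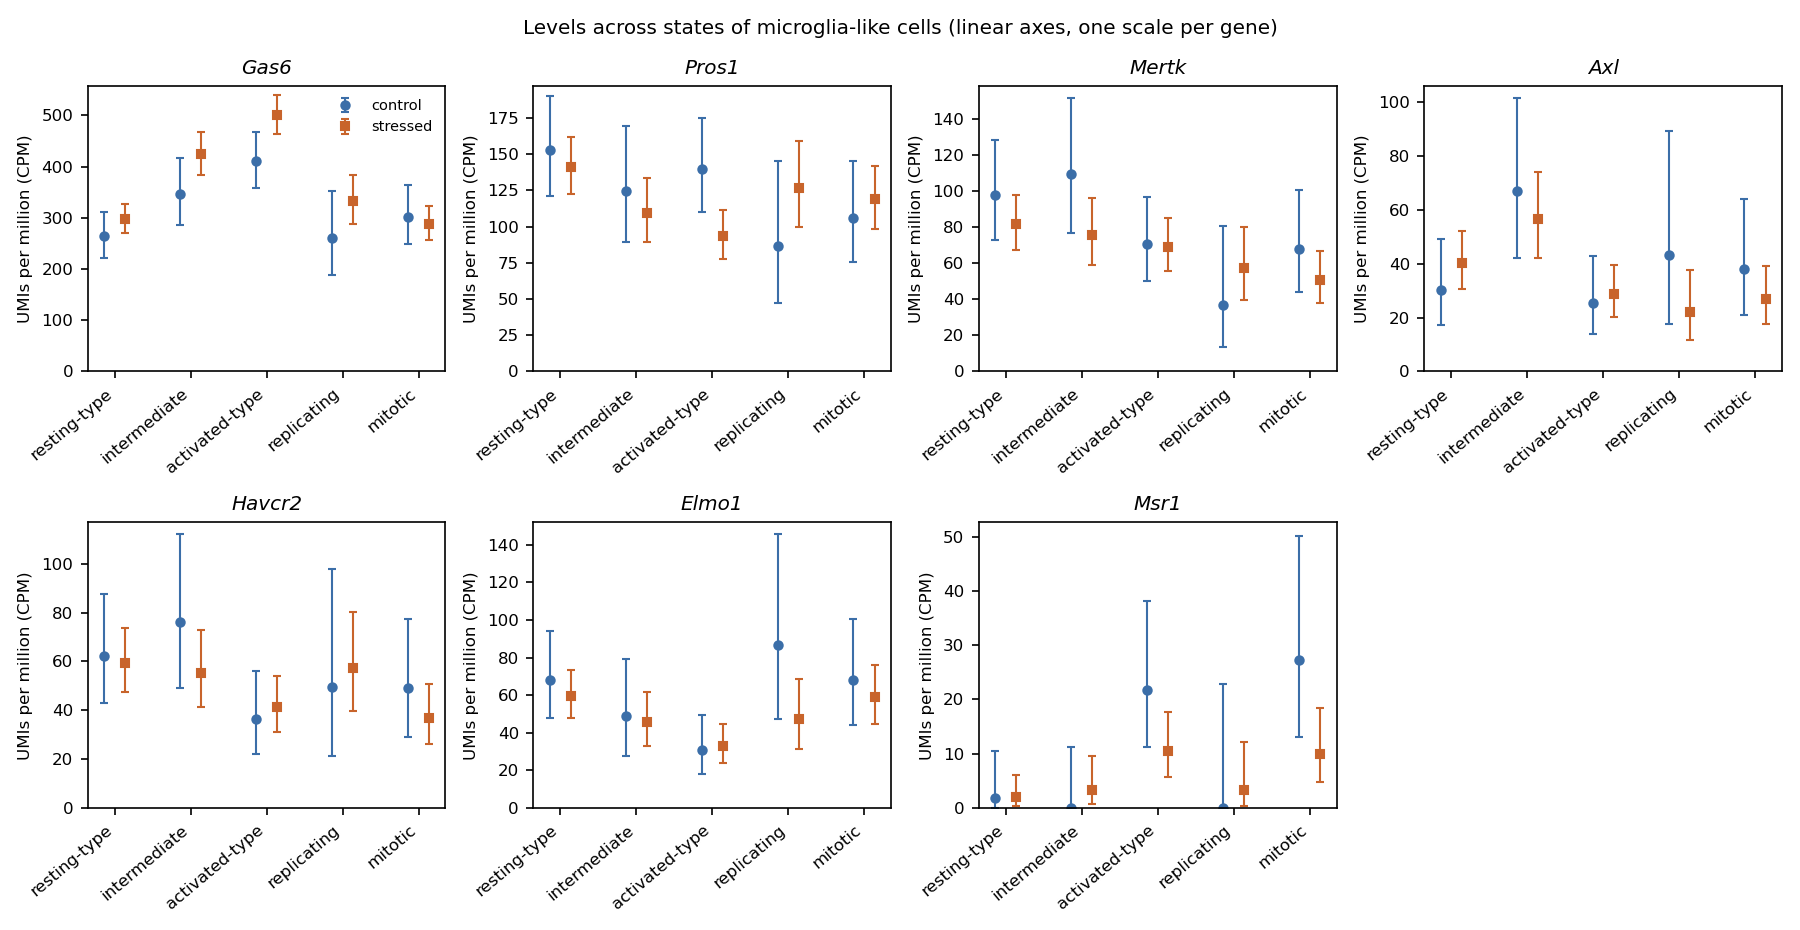
Level of 7 genes in the 5 clusters of microglia-like cells, in CPM (linear axes from 0, a separate scale for each gene), circles for the control and squares for the stressed library, bars for exact Poisson 95% intervals. Gas6 was higher in activated-type (410 and 500 CPM) than in resting-type cells (264 and 297 CPM), and Elmo1 was lower (30.9 and 33.2 against 67.9 and 59.5 CPM).

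Ligand and receptor UMIs were also counted in the same cells at equal depth. In the control library 12.8% (8.84 to 17.6%) of microglia-like cells with a Gas6 or Pros1 UMI had a UMI of Axl, Mertk or Tyro3, and 12.6% (9.62 to 16.2%) of those without. In the stressed library the shares were 13.4% (10.4 to 16.8%) and 9.55% (7.46 to 12.0%). The intervals overlapped in both, widely in the control and less so in the stressed library. Overlap does not show that the shares were equal, and their difference was not tested.

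Between the 2 pools, levels in microglia-like cells differed little. Of the 10 genes, 7 reached 10 CPM in a library. In the stressed library 0 of these were higher and 1 (Msr1) was lower by more than 1.5 times. Of the 7463 genes measured, 9.66% passed that limit in either direction, 2.73% higher and 6.93% lower. Msr1 reached 10 CPM in the control library only (11.9 against 6.06 CPM), so it could only be counted as lower. The median log2 ratio of the 7 was −0.14, and of all genes −0.08. Scaling by TMM or size factors in place of totals raised every log2 ratio by about 0.1 (0.099 and 0.104), which turned Axl from −0.08 to 0.02 under both.

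Gas6, at 327 and 372 CPM, had a log2 ratio of stressed over control of 0.19 (0.06 to 0.32), the only one of the 7 whose interval lay above 0. It was 0.08 (−0.12 to 0.28) among female cells. Mertk had −0.24 (−0.51 to 0.04), Elmo1 −0.19 (−0.51 to 0.15), Pros1 −0.14 (−0.35 to 0.08), Havcr2 −0.11 (−0.44 to 0.23) and Axl −0.08 (−0.48 to 0.33). Each of these 5 intervals included 0. Timd4 and Tyro3, with at most 3 UMIs per library, gave no ratio, and Mfge8 was under 10 CPM.

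Msr1 had 23 UMIs in 19 of 714 control cells and 32 in 26 of 1159 stressed cells. Its log2 ratio was −0.97 (−1.79 to −0.13). Its UMIs in the mitotic cluster were 10 and 10, or 27.2 and 9.99 CPM. In the whole microglia-like class, border macrophage markers were also lower in the stressed library. In the control library 9 of 9 were detected and their sum was 841 CPM, against 8 of 9 and 326 CPM in the stressed library. The part of border macrophage RNA in the Msr1 difference was not tested. By marker UMIs per cell, 12 control and 2 stressed cells of the class passed as border-associated. The log2 ratio was −0.75 without those cells, −0.46 among cells gated by markers alone and −0.11 in non-cycling cells. With thinned cells, where 4 control and 6 stressed cells had a UMI, it was 0.20.

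The pools also differed in transcripts of the sex chromosomes. Of microglia-like cells, 233 of 714 control and 1070 of 1159 stressed cells had Xist and no Y-linked UMI, and 144 and 0 had Y-linked UMIs without Xist. Among female cells 8 of the 10 genes were measured, and 2 (Mfge8 and Msr1) were lower by more than 1.5 times and 0 higher. Of the 7572 genes measured there, 19.7% passed the limit in either direction, 7.54% higher and 12.2% lower. Mfge8 had −0.92 (−2.06 to 0.40) and Msr1 −0.87 (−2.08 to 0.57), and both intervals included 0. Each reached 10 CPM in the control library only, so it could only be counted as lower. The median log2 ratio of the 8 genes was −0.38, and of all genes −0.08. Axl had 54.1 CPM in female control cells and a log2 ratio of −0.58 (−1.11 to −0.01), past 0 but within 1.5 times; Mertk had −0.36 (−0.76 to 0.06) and Elmo1 −0.40 (−0.87 to 0.10). Within the control library, female cells against cells with Y-linked UMIs gave 0.48 (−0.36 to 1.37) for Axl and 0.21 (−0.09 to 0.52) for Gas6, and the intervals of all 8 genes that gave a ratio included 0.

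**Figure D3:**
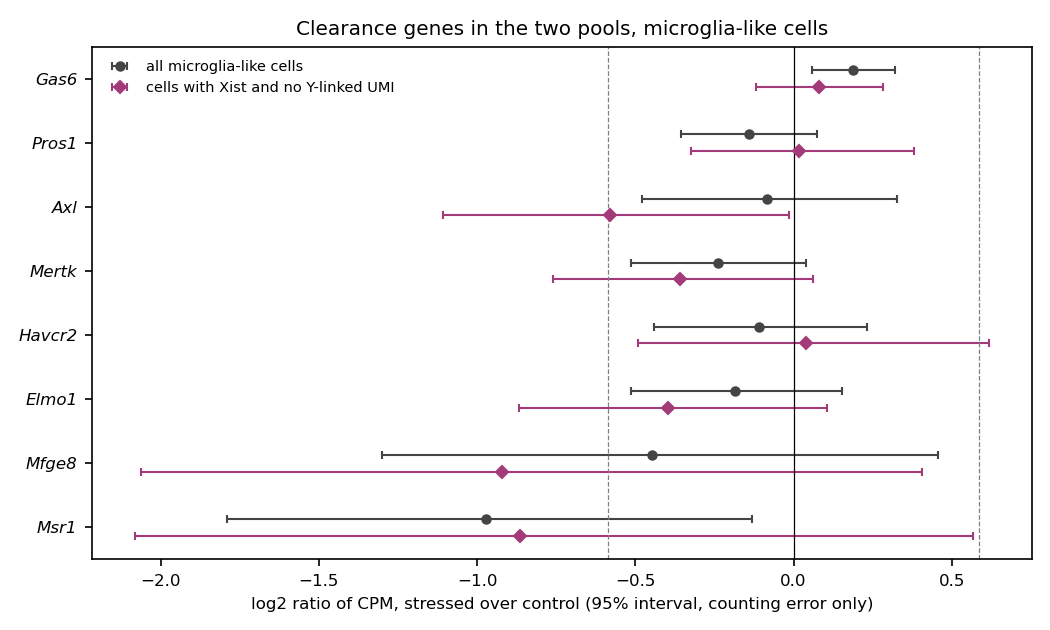
Log2 ratio of stressed over control for 8 genes in all microglia-like cells (circles) and in cells with Xist and no Y-linked UMI (diamonds), with 95% intervals of counting error; dashed lines mark 1.5 times in either direction. Gas6 was above 0 (0.19) and Msr1 below (−0.97) in all cells, and the female values of Axl (−0.58) and Mertk (−0.36) lay further below 0 than those of all cells.

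The wider pathway was followed in 68 genes of 10 lists, of which 50 reached 10 CPM in microglia-like cells. None was higher and 5 were lower by more than 1.5 times in the stressed library: Cd300lf, Colec12, Ggcx, Cd36 and Itgax. Cd300lf, Ggcx and Cd36 reached 10 CPM only in the control library, so they could only be counted as lower. Among female cells 49 were measured; 6 were lower, the same 5 and Dock1 (−0.67, −1.58 to 0.36), and 1 was higher, Trem2, against the 12.2% lower and 7.54% higher over all genes there. The share lower in all microglia-like cells is near the 6.93% over all genes. The median of the 50 was −0.17. The lists were written with earlier results of these data known, and no list was tested against others.

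Cd300lf, a phosphatidylserine receptor of myeloid cells, had the largest difference of the 50. It had 59 UMIs in 50 of 714 control cells and 19 UMIs in 19 of 1159 stressed cells, with levels of 30.4 and 3.60 CPM. The log2 ratio was −3.08 (−3.91 to −2.32). It was lower in resting-type cells, at 54.7 against 4.15 CPM, and in activated-type cells, at 12.7 against 2.26 CPM. Among female cells the ratio was −2.30 (−3.42 to −1.13). In monocyte or granulocyte-like cells 6 UMIs in each library gave 79.3 and 44.0 CPM, a ratio of −0.85 (−2.75 to 1.05). Cd300lf lies at chr11:115116214-115133992 on the minus strand of GRCm38. The other receptors of its list included Trem2, a lipid receptor of microglia, at 1203 and 1557 CPM, a ratio of 0.37 (0.31 to 0.44), and Stab1, at −0.41 (−0.55 to −0.28), both within 1.5 times. Among female cells Trem2 was past it, at 0.60 (0.48 to 0.71).

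Of the scavenger and tethering receptors 6 of 10 were measured, and Colec12 and Cd36 were lower. Colec12 was at 32.5 and 13.4 CPM, −1.27 (−1.78 to −0.76), and Cd36, which binds oxidised lipids, at 10.8 and 6.06 CPM, −0.84 (−1.68 to 0.03). Both were far higher in border-associated cells, at 142 and 171 CPM for Colec12 and 194 and 234 CPM for Cd36. The part of border macrophage RNA in their differences between the pools was not tested. Among cells gated as microglia, Cd36 was at 5.54 and 5.44 CPM and Colec12 at 23.8 and 12.6 CPM. Lrp1 (−0.18) and Cd68 (−0.15) were within 1.5 times.

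Ggcx, the enzyme that carboxylates Gas6 and Pros1 so that they can bind the lipid, had 22 and 32 UMIs, or 11.4 and 6.06 CPM, −0.91 (−1.73 to −0.05). Its list of 5 also held Vkorc1, which recycles the vitamin K that this step needs, at 0.01, and Adam10, a protease that sheds surface receptors, at −0.24 (−0.40 to −0.08). Ggcx was not lower in every state. It had 13 and 5 UMIs in resting-type cells (24.5 and 3.46 CPM) and 6 and 10 in activated-type cells (10.9 and 7.54 CPM). Intermediate cells went the other way, with 1 and 10 UMIs (3.04 and 10.9 CPM). The 3 integrins that bind Mfge8 were all within 1.5 times, Itgav at −0.33 and Itgb5 at −0.03.

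In all microglia-like cells, engulfment signalling and the other lists held to within 1.5 times, apart from Itgax. Of the Elmo, Dock and Rac genes 9 of 11 were measured and 0 passed the limit, with Rac1 at −0.18 and Rac2 at 0.11. Of the exposure and stop signals 5 of 7 were measured; Sirpa, the receptor for the stop signal Cd47, was at 997 and 698 CPM, −0.51 (−0.59 to −0.43), and Calr at −0.27. Receptors for find-me signals included Cx3cr1, at 0.18 (0.11 to 0.25), and P2ry12, at −0.03. Genes of lipid handling after engulfment included Abca1, at −0.07, and Ucp2, at −0.04. Of the complement genes Itgax, a complement receptor subunit and also a marker of Spp1-type activation, was lower, at 53.7 and 34.8 CPM, −0.62 (−0.98 to −0.26), with C1qa at 0.28 and C1qc at 0.04. Itgax was at 125 and 76.9 CPM in activated-type cells and at 9.44 and 5.54 CPM in resting-type cells; activated-type cells were 17.9% and 16.4% of the class. The Tim-3 ligands Lgals9 (−0.18) and Hmgb1 (−0.13) were within the limit.

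**Figure D4:**
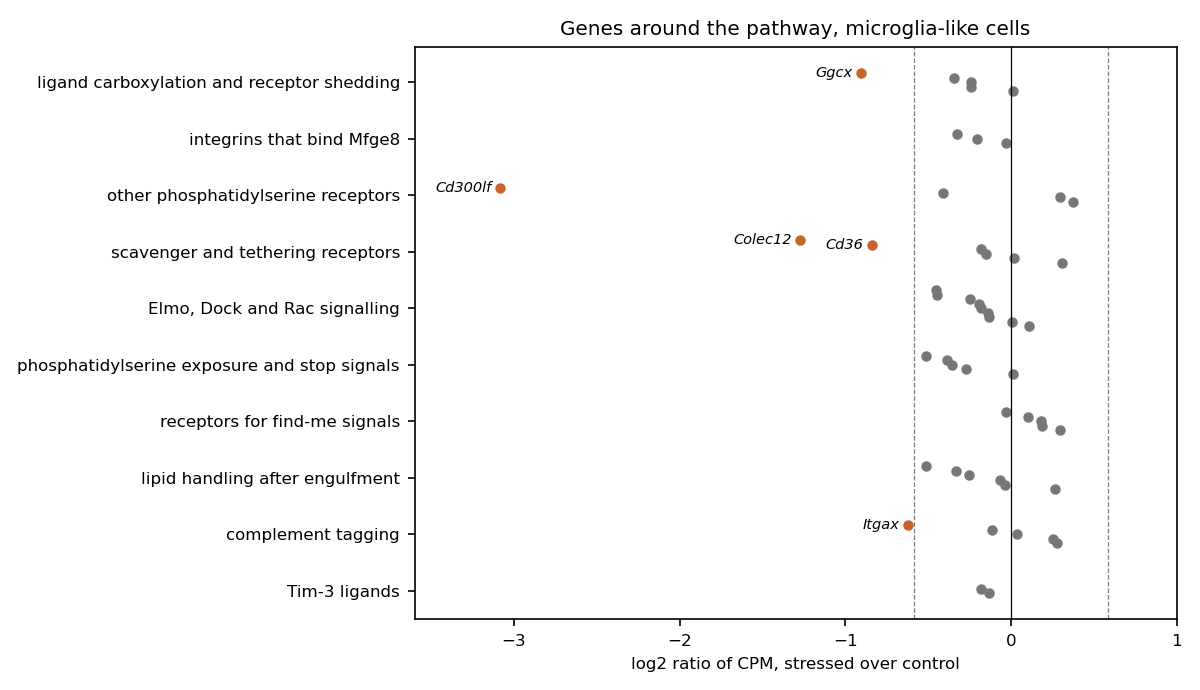
Log2 ratio of stressed over control in microglia-like cells for the 50 measured genes, 1 point per gene, by list; dashed lines mark 1.5 times in either direction and genes past it are named. Cd300lf (−3.08) stood apart on the left, 4 other genes lay past the left line, and 0 lay past the right one.

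Genes whose levels were most like those of each clearance gene were ranked by Pearson correlation of log2(CPM + 1) over 20 sums of cells by class or state and library. These sums share 2 libraries and their depths, so the correlations are descriptions. Mertk was most like P2ry13 (0.965), Rab3il1 (0.951) and Eva1a (0.948). Gas6 was most like Tmem86a (0.967), Fam212a (0.965) and C3ar1 (0.954). Pros1 was most like Cmtm6 (0.964), Mknk1 (0.956) and Elk3 (0.938). Havcr2 was most like Cep85l (0.908), P2ry12 (0.907) and Abcb1b (0.902), and Elmo1 like Prkcsh (0.884), Pld1 (0.882) and Gmip (0.877). Mfge8 was most like Vit (0.875), Slc6a11 (0.853) and Fgfr3 (0.849). Axl had the weakest likeness, with H2-DMb1 (0.750), Zbtb7a (0.746) and Rbm38 (0.735).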

How the data were processed

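Sorted cells of 1 control and 1 stressed pool were profiled with 10x Genomics 3′ libraries, v3 chemistry, per the labels' protocols. The authors deposited whole-number UMI counts for each feature and called cell, and version 3.0.0 of the counting software is recorded per the file headers. Per the submitters' processing notes, tools were STAR, Seurat 2.4 and Cell Ranger 3.0.0, with GRCm38.p5 and mm10 as builds; the role of each is not given in the sources used here. The 10 genes and all lists were chosen with earlier results of these data known.

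A minimum of 500 genes and a maximum of 10% mitochondrial UMIs per cell left out 88 control and 60 stressed barcodes. Cells of both pools were then clustered jointly (scanpy 1.11.5) on 2000 variable genes without the 10 genes, Xist, Tsix and Y-linked genes (10000 per cell, 30 principal components, 15 neighbours, Leiden resolution 0.5). Resolution 1 divided neural-like cells. Clusters were named from marker lists. Scrublet called 2 control and 3 stressed cells, so doublets were kept, and an alternative removed the highest 3.5% of scores.

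UMIs were summed per class and library and divided by the class total (CPM) with exact Poisson intervals. Ratios have exact conditional intervals and shares Clopper-Pearson intervals. A ratio against 0 UMIs used a floor of 3 UMIs and is a bound. Genes with at least 10 CPM in 1 of the sums compared counted as measured. Tested on simulated counts for stressed against control microglia-like cells (7056 genes), 94% of 2-fold higher and 86% of 2-fold lower genes passed 1.5 times, as did 2.76% of unchanged genes. The simulated counts held Poisson error only, with no variation between cells, animals or libraries. edgeR 4.0.16 TMM and DESeq2 1.42.0 size factors served as alternative scalings. Named pathway genes were the 2 with the highest mean CPM of each list and those past 1.5 times. UMIs are not read copies, and intervals leave out all variation between animals.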

Additional observations from a re-analysis of the deposited data

Results flagged for a closer look

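The log2 ratio of Mertk in border-associated over microglia-like cells lay on opposite sides of 0 in the 2 libraries, but the intervals overlapped and the stressed one included 0. It was −1.64 (−3.28 to −0.38) among control cells and 0.23 (−0.91 to 1.17) among stressed cells, from 5 UMIs in 61 and 9 UMIs in 21 border-associated cells; the difference was not tested.

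The barcodes left out by the cell filter also held clearance transcripts, at counts above the limit of 3 UMIs. The 88 control barcodes, with 94526 UMIs in all, held 14 Gas6, 6 Mertk and 4 Pros1 UMIs, or 148, 63.5 and 42.3 CPM. The 60 stressed barcodes, with 107578 UMIs, held 9 Mfge8 UMIs and 4 Gas6 UMIs, or 83.7 and 37.2 CPM.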

How the results depend on the processing

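No paired analysis was possible because each condition has 1 library. The count of clearance genes past 1.5 times between pools was 1 and fell to 0 with the mean of per-cell CPM, the per-cell marker gate, cells of low dissociation response, non-cycling cells, a minimum of 50 CPM, a limit of 2 times, and when each gene's 1% of richest cells was dropped; it was 2 in female cells (Mfge8 and Msr1), and with thinned cells the 1 gene was Elmo1 (−0.62), not Msr1. The median log2 ratio between pools (−0.14) lay between −0.38 and −0.04 over its 16 alternatives. The pathway count of 5 was 8 with thinned cells (of the 5, Cd300lf and Cd36 were among them), 1 with at least 50 CPM, 9 with no minimum, 2 with a limit of 2 times and 3 without the 1% of richest cells. In border-associated cells the count of 2 higher was 1 with thinned cells and in female cells, and the count of 0 lower was 1 with TMM factors, mean of per-cell CPM, doublets removed and the marker gate, and 3 with a limit of 1.5 times. The count of 3 between activated-type and resting-type cells was 1 under the stricter cell filter (1000 genes, 5% mitochondrial UMIs), and 1 with a limit of 2 times. The genes behind it also changed: they were Axl and Elmo1 with thinned cells, Pros1 and Elmo1 among female cells, Mfge8, Msr1 and Elmo1 with the per-cell state gate, Gas6 and Elmo1 with the mean of per-cell CPM, Elmo1 under the stricter filter and Msr1 with a limit of 2 times. Msr1 between pools turned from −0.97 to 0.20 with thinned cells.

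Of 747 values of single genes under alternatives, 683 lay within the main counting interval, 63 lay outside it, and 1 more (Msr1 above) turned direction from past its limit. In all, 39 of the 747 had the opposite sign to the reported value; apart from Msr1, these reported values were within the limit. The alternatives without shared barcodes, without border-gated cells and without the 1% of cells were chosen after seeing the data. Depth limits Timd4, Tyro3 and Msr1, whose values rest on 12, 15 and 91 UMIs.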
